A study of Homo sapiens with 24 samples.

Results

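The nuclear aspartate and histidine transfer RNAs of HEK293T cells, a human embryonic kidney line, were followed in knockouts of the dihydrouridine synthases DUS1L, DUS2L and DUS3L. Members were taken by name alone. They were the anticodon families Asp-GTC and His-GTG, 2 of 74 entries at the anticodon level and of 49 nuclear families, and their isodecoders, which are tRNAs of distinct mature sequence sharing an anticodon. The isodecoders were tRNA-Asp-GTC-1-1, tRNA-Asp-GTC-2-8, tRNA-Asp-GTC-3-1 and tRNA-His-GTG-1-1, 4 of 286 entries and of 261 nuclear ones. Mitochondrial tRNAs were not included. The 24 libraries were labelled as DUS1L KO 1-9 and 2-4, DUS2L KO 1-8 and 2-1, DUS3L KO 1-5 and 2-8, and WT and WT 2 cells, with 3 libraries in each of the 8 groups. Each knockout group was thus a single cell line. All cells grew untreated in the same medium, tRNA was cut from a gel, and E. coli tRNA had been added as spike-in.

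The authors' deposited tables compared 2 clones of each knockout, called #1 and #2, with wild-type cells, and do not say which labelled clone is which. They give the mean of normalised counts per row, with log2 fold changes and p-values, and values per library were not analysed here. The error of each fold change is therefore the standard error (SE) recovered from the fold change and its p-value, with a 95% interval of the same origin. A row passed at an adjusted p under 0.05, by the Benjamini-Hochberg method over all rows of the column. The level of a tRNA in a clone or in wild type was worked out from that mean together with the fold changes of both clones, and carries no error of its own. Whether the 3 libraries of each group were grown as separate cultures is not stated, and the p-values may therefore reflect technical spread alone. Fewer tRNA molecules and poorer reading of modified molecules by reverse transcription cannot be told apart in such libraries.

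Dihydrouridine synthases reduce uridines of tRNA to dihydrouridine, a base that does not stack and loosens the backbone. In human cells DUS1L and DUS2L act on the D loop, the arm that folds against the T arm at the elbow of the molecule, and DUS3L acts on the variable loop. Aspartate and histidine tRNAs share a feature outside these loops. The first base of their anticodon is a G that is exchanged for queuosine in animal cells, as in asparagine and tyrosine tRNAs. The aspartate tRNA is also the best known substrate of the cytosine methyltransferase TRDMT1, and the histidine tRNA receives an additional G at its start from THG1L, by which histidyl-tRNA synthetase recognises it.

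Sequences of both tRNAs are shown for the uridines they hold in the D loop, where DUS1L and DUS2L act. Capitals mark the anticodon, at bases 34 to 36 from the 5′ end of the gene, and each T of the D loop, bases 14 to 21. The first is a histidine gene of isodecoder 1 on chromosome 15 (chr15:45201151-45201222, plus strand, RefSeq, GRCh38.p14). The second holds the first 17 bases of an aspartate gene of isodecoder 2 on chromosome 1 (chr1:161440880-161440896, minus strand, GENCODE, GRCh38), which end inside the D loop and before the anticodon.
TRH-GTG1-9: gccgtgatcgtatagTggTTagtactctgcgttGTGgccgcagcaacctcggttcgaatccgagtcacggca
TRD-GTC2-1: tcctcgttagtatagTg
The histidine D loop held T at bases 16, 19 and 20, and the variable loop, bases 44 to 47 between the anticodon stem and the T stem, held 0. Of the 9 histidine genes looked for, a whole sequence could be read for 4, and all 4 held the same 72 bases. The 17 aspartate bases were the same in 3 genes of isodecoder 2. They equalled the histidine gene at 12 of 17 bases, among them every base from 10 to 17, with a T at base 16 in both. The rest of the aspartate D loop was not read, and no sequence was read for tRNA-Asp-GTC-1-1 or tRNA-Asp-GTC-3-1.

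RefSeq annotation of GRCh38.p14 named a gene for each of the 4 isodecoder entries, each 72 bases long, so that counts can be compared among them without correction for length. tRNA-Asp-GTC-1-1 (chromosome 12, 98503503 to 98503574, in an intron of the long non-coding RNA gene LINC02453) is the sole gene of its isodecoder. tRNA-Asp-GTC-3-1 (chromosome 6, 27583457 to 27583528, outside any GENCODE gene) likewise has 1 gene. The entry tRNA-Asp-GTC-2-8 (chromosome 12, 96036021 to 96036092, in an intron of the leukotriene hydrolase gene LTA4H) belongs to an isodecoder with 11 genes. tRNA-His-GTG-1-1 (chromosome 1, 146038044 to 146038115, outside any GENCODE gene) belongs to one with 9. Reads from identical copies cannot be told apart, so these 2 entries can stand for all of their copies.

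Of the 4 isodecoders, tRNA-Asp-GTC-2-8 was the most abundant in every group. In the DUS1L table it stood at 26836 normalised counts in clone #1 and 28789 in clone #2, against 21386 in wild type. tRNA-His-GTG-1-1 stood at 14262 and 9733 in the DUS1L clones, against 18257 in wild type. tRNA-Asp-GTC-1-1 stood at 6375 and 6282 in the DUS1L clones, against 7974 in wild type. The last, tRNA-Asp-GTC-3-1, was rare, at 235 and 255 normalised counts in the DUS1L clones, against 107 in wild type. In that wild type the aspartate family made up 2.61% of nuclear tRNA counts and the histidine family 1.62%.

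**Figure D1:**
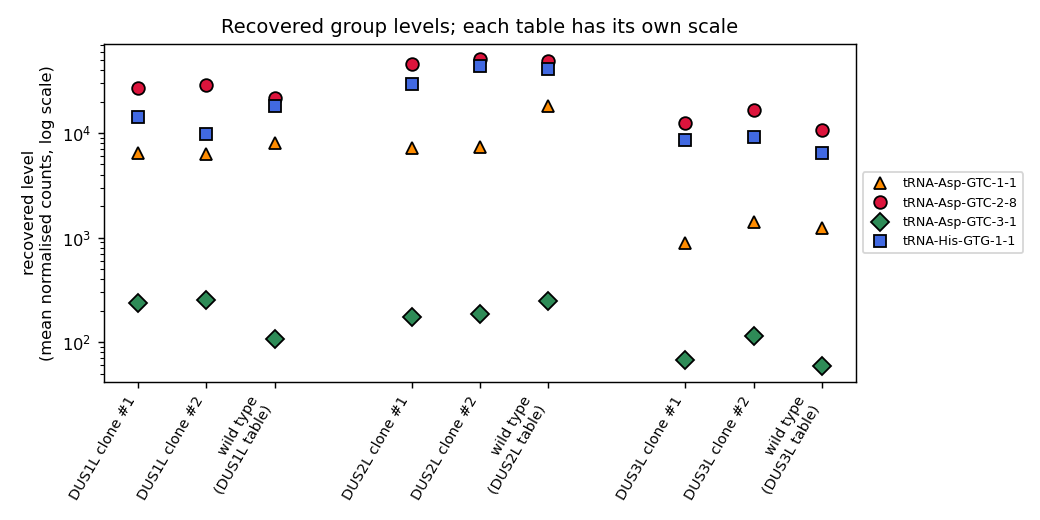
Recovered level (mean normalised counts, log scale) of the 4 isodecoders in both clones of each knockout and in the wild type of the same table, one point per group without error. Each table has its own scale, so points are comparable within a block of 3 groups; tRNA-Asp-GTC-2-8 lies highest and tRNA-Asp-GTC-3-1 lowest in every group.

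The aspartate and histidine families as a whole did not pass the test in any clone. Of 12 tests, 2 families in 6 clones, 0 passed, and 0 had an unadjusted p under 0.05 in the authors' deposited tables (DESeq2, per the submitters' processing notes). Adjusted p-values ran from 0.46 to 0.95, and every 95% interval included 0. The share of all rows of the column that passed was 5.71% and 0% in DUS1L clones #1 and #2, 35.2% and 42.3% in DUS2L, and 8.11% and 5.41% in DUS3L.

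For DUS1L clones #1 and #2, the authors' deposited table put Asp-GTC at log2 fold changes (± SE) of 0.18 ± 0.50 and 0.26 ± 0.50. In the authors' deposited table for DUS2L it stood at -0.33 ± 0.52 and -0.20 ± 0.52, and in that for DUS3L at 0.16 ± 0.32 and 0.58 ± 0.32. The interval in DUS2L clone #1 ran from 0.395-fold to 1.61-fold of wild type, and that in DUS3L clone #2 from 0.971-fold to 2.32-fold. His-GTG stood at -0.36 ± 0.53 and -0.91 ± 0.53 in the authors' deposited table for DUS1L, where clone #2 held its lowest value, with an interval from 0.259-fold to 1.10-fold. For DUS2L the authors' deposited table gave -0.49 ± 0.53 and 0.09 ± 0.53, and for DUS3L 0.40 ± 0.34 and 0.52 ± 0.34.

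The DUS2L values depend on the scaling. In DUS2L clones #1 and #2 the median nuclear family had log2 fold changes of -1.10 and -0.45, beside -0.04 and -0.05 in the DUS1L clones and -0.19 and 0.28 in the DUS3L clones. Relative to that median, Asp-GTC stood at 0.77 and 0.25 in the DUS2L clones (adjusted p = 0.29 and 0.75 after centring the DESeq2 fold changes). His-GTG stood at 0.60 and 0.54 (adjusted p = 0.43 and 0.46), so that none of these passed either. Asp-GTC lay above the median nuclear family in 6 of 6 clones and His-GTG in 4 of 6, the exceptions being both DUS1L clones. In the DUS1L and DUS3L clones the centred values of both families did not pass. How many of all families lay above the median in all 6 clones was not counted. Both clones of a knockout share a wild type, so that these are not 6 independent comparisons. Among 49 nuclear families ordered from the highest fold change, Asp-GTC ranked between 12 and 20 and His-GTG between 7 and 41.

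**Figure D2:**
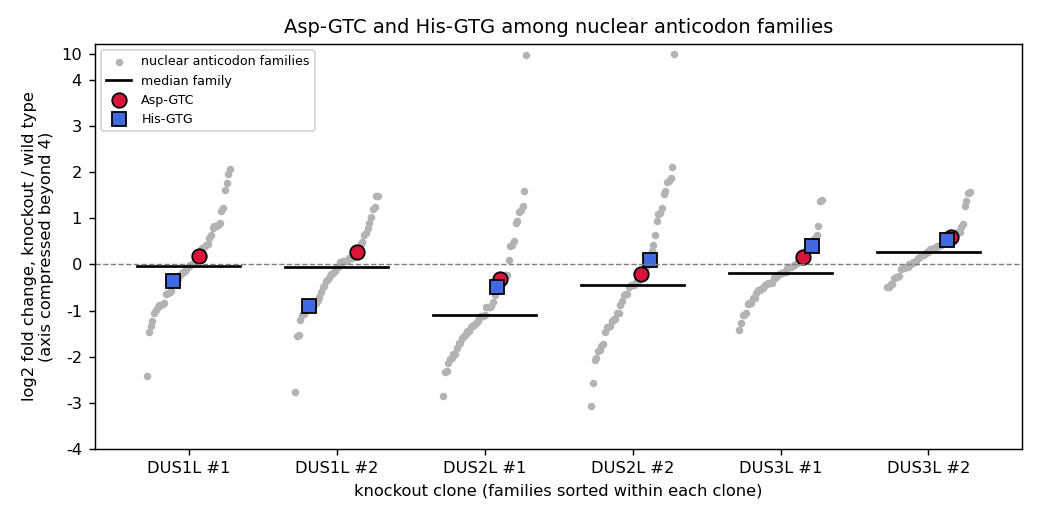
Log2 fold change of each nuclear anticodon family against wild type, sorted within each of the 6 clones, with Asp-GTC (circle), His-GTG (square) and the median family (line); the axis is compressed beyond 4. Asp-GTC lies above the median family in all 6 clones, and His-GTG below it in both DUS1L clones.

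Among isodecoders, 3 of 24 tests passed, all of them on the less abundant aspartate tRNAs, and 5 had an unadjusted p under 0.05. Over all isodecoders 25.7% of such tests passed, against 3 of 24 here. By column the share was 20.7% and 8.36% in DUS1L clones #1 and #2, 54% and 52.2% in DUS2L, and 7.8% and 11.7% in DUS3L. tRNA-His-GTG-1-1 and tRNA-Asp-GTC-2-8 passed in none of the 6 clones. Since His-GTG has 1 isodecoder, its fold changes repeat those of the family. tRNA-Asp-GTC-2-8 ranged from -0.08 to 0.62 in the authors' deposited tables, with adjusted p-values from 0.34 to 0.93.

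tRNA-Asp-GTC-3-1 was higher in both DUS1L clones. Its level of 235 normalised counts in clone #1 and 255 in clone #2, against 107 in wild type, corresponded in the authors' deposited table to 1.13 ± 0.41 and 1.25 ± 0.41 (adjusted p = 0.0297 and 0.0317 from the authors' DESeq2 p-values). As a fold this was 2.19 in clone #1 with an interval from 1.26 to 3.82, and 2.38 in clone #2 with an interval from 1.37 to 4.13. When fold changes were centred on the median nuclear isodecoder, clone #2 still passed (1.44, adjusted p = 0.00887), whereas clone #1 did not (0.93, adjusted p = 0.0919), nor did it with the spike-ins as reference (0.95, adjusted p = 0.0824). The tRNA had the highest change of the 4 isodecoders in both DUS1L clones. Among the 260 nuclear isodecoders with a fold change, ordered from the highest, it ranked 72 in clone #1 and 22 in clone #2.

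In the DUS2L clones the same tRNA stood at 173 and 187 normalised counts, against 246 in wild type. With log2 fold changes of -0.51 ± 0.42 and -0.39 ± 0.42 the authors' deposited table gave no pass in either clone (adjusted p = 0.31 and 0.44). In the DUS3L clones it stood at 67.4 and 114 normalised counts, against 58.7 in wild type. That was 0.20 ± 0.41 and 0.95 ± 0.41 in the authors' deposited table, the second with an unadjusted p of 0.0189 and an adjusted p of 0.13. Its mean of 79.9 normalised counts in the DUS3L table was the lowest of any member.

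The recovered wild-type levels of the DUS1L and DUS2L tables differed by a nearly constant factor. Over 181 isodecoders with a mean of at least 100 its median was 2.28, and its 5th and 95th percentiles were 2.24 and 2.33. For the 4 members the factor was 2.25 to 2.30. Such constancy was taken to mean that both tables used one set of wild-type libraries. DUS1L and DUS2L clones were therefore set against each other, a comparison chosen after the values were seen. In all 4 pairs of clones the change of tRNA-Asp-GTC-3-1 was higher in DUS1L than in DUS2L. The difference was 1.64 ± 0.59 for clone #1 minus clone #1, 1.53 ± 0.58 for clone #1 minus clone #2, 1.76 ± 0.58 for clone #2 minus clone #1 and 1.64 ± 0.58 for clone #2 minus clone #2, with adjusted p-values from 0.0139 to 0.0296 over all isodecoders. In the same order of pairs, 31.7%, 35.1%, 28% and 31% of all isodecoders passed. The other 3 isodecoders and both families did not pass in any pair, where 14.9%, 22.4%, 17.6% and 20.6% of all families passed.

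This comparison depends on the scaling and on the SE. The SE above counts the shared wild-type libraries as if each table had its own, which makes it too large. With the shared part left out, tRNA-Asp-GTC-3-1 again passed in all 4 pairs as deposited, with adjusted p-values from 0.00010 to 0.00074, and no other member passed. The shares over all isodecoders were then 50.8%, 48.9%, 46.2% and 47.7%, and over all families 37.3%, 43.3%, 38.8% and 43.3%.

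After centring on the median nuclear isodecoder, the difference of tRNA-Asp-GTC-3-1 was 0.42, 0.77, 0.92 and 1.28 in the same order of pairs. With the larger SE it passed in 0 of 4 pairs, where 26.8%, 31.3%, 24.3% and 30.6% of all isodecoders and 10.4%, 8.96%, 16.2% and 19.1% of all families passed. With the shared part left out it passed in 1 pair, clone #2 minus clone #2 (adjusted p = 0.0052).

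Under that last setting tRNA-His-GTG-1-1 was lower in DUS1L than in DUS2L clones in all 4 pairs, and passed in 3 of them. The centred difference was -1.09, -1.20, -1.25 and -1.36, with adjusted p-values of 0.085, 0.046, 0.047 and 0.024, and the His-GTG family passed in the 2 pairs of DUS1L clone #2 (-1.46 and -1.40, adjusted p = 0.021 and 0.022). In these pairs 45.8%, 54.2%, 43.9% and 49.2% of all isodecoders and 23.9%, 40.3%, 34.3% and 40.3% of all families passed. Without centring the histidine difference was 0.14, -0.45, -0.41 and -1.002 and passed in none of the 4 pairs with either SE.

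tRNA-Asp-GTC-1-1 was lower in DUS2L clone #1. It stood at 7151 and 7362 normalised counts in DUS2L clones #1 and #2, against 17964 in wild type. The change of -1.33 ± 0.59 in the authors' deposited table passed narrowly in clone #1 (adjusted p = 0.0478 from the authors' DESeq2 p-values), and that of -1.29 ± 0.59 missed the threshold in clone #2 (adjusted p = 0.0572). The 2 clones differed by -0.04, with an interval from -1.69 to 1.61, or from -1.21 to 1.12 with the shared wild-type part left out of the SE. The median nuclear isodecoder had log2 fold changes of -1.02 and -0.55, and relative to it tRNA-Asp-GTC-1-1 stood at -0.31 (adjusted p = 0.72) and -0.73 (adjusted p = 0.32). With the spike-ins as reference the values were -1.06 and -0.82, neither past the threshold.

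In the other knockouts tRNA-Asp-GTC-1-1 stood at -0.32 ± 0.61 and -0.34 ± 0.61 for DUS1L and at -0.47 ± 0.35 and 0.21 ± 0.35 for DUS3L in the authors' deposited tables, without passing. The DUS3L levels were 882 and 1410 normalised counts, against 1221 in wild type. The isodecoder lay below the median nuclear isodecoder in all 6 clones, by as little as 0.01 in DUS3L clone #2. tRNA-Asp-GTC-2-8 and tRNA-Asp-GTC-3-1 lay above it in all 6. How many of all isodecoders kept to the same side in all 6 clones was not counted.

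**Figure D3:**
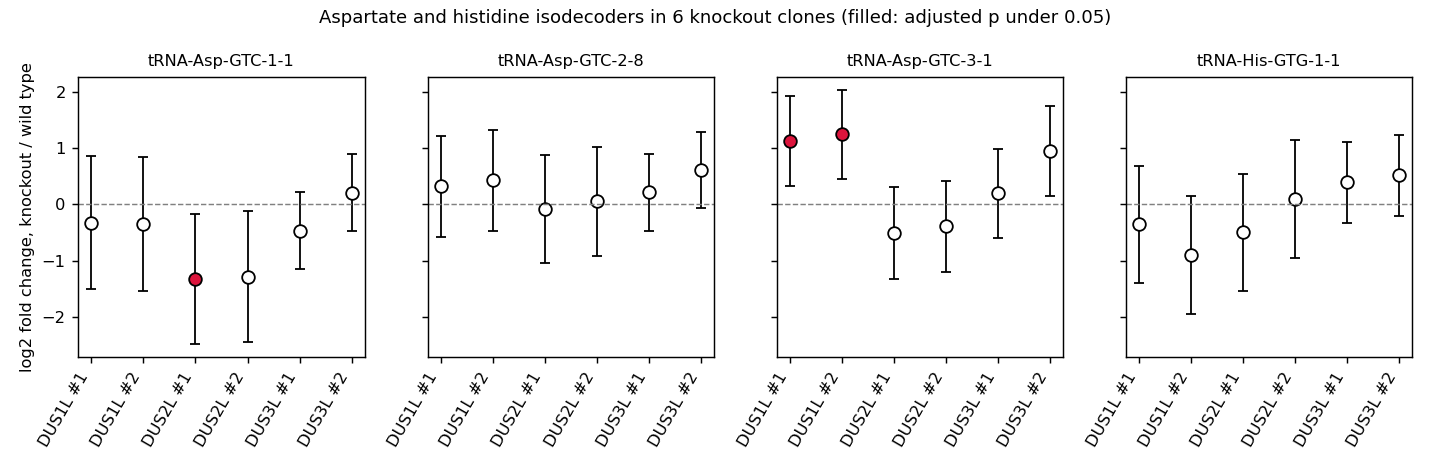
Log2 fold change against wild type of the 4 isodecoders in the 6 clones, with the 95% interval recovered from the authors' p-value; filled points have an adjusted p under 0.05. The filled points are tRNA-Asp-GTC-3-1 in both DUS1L clones (1.13 and 1.25) and tRNA-Asp-GTC-1-1 in DUS2L clone #1 (-1.33).

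A shift in scale common to all libraries of a group leaves the make-up of the aspartate family unchanged. The scaling of single libraries can still alter it, since each level is a mean over libraries. tRNA-Asp-GTC-1-1 held a smaller share of the family than in the wild type of the same table in all 6 clones. In the DUS2L clones it made up 13.4% and 12.6% of family counts, against 26.8% in wild type. In the DUS1L clones it made up 19.1% and 17.8%, against 27.1% in wild type. In the DUS3L clones, set against other wild-type libraries, it made up 6.55% and 7.79%, against 10.1% in wild type. tRNA-Asp-GTC-2-8 made up the larger part throughout, at 86.3% and 87% in the DUS2L clones, against 72.8% in wild type. Relative to tRNA-Asp-GTC-2-8, the log2 ratio of tRNA-Asp-GTC-1-1 differed from wild type by -1.25 and -1.34 in DUS2L, -0.65 and -0.77 in DUS1L and -0.68 and -0.41 in DUS3L. The DUS1L and DUS2L values share their wild-type libraries. No test of these shares could be made, since the tables do not say how 2 isodecoders vary together across libraries.

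The share of tRNA-Asp-GTC-3-1 was 0.703% and 0.721% of family counts in the DUS1L clones, against 0.363% in wild type. In the DUS2L clones it was 0.324% and 0.322%, against 0.367% in wild type, and in the DUS3L clones 0.500% and 0.628%, against 0.487% in wild type. Relative to tRNA-Asp-GTC-2-8, its log2 ratio differed from wild type by 0.81 and 0.82 in DUS1L, by -0.43 and -0.45 in DUS2L and by -0.02 and 0.33 in DUS3L. The ratio was thus above wild type in both DUS1L clones and DUS3L clone #2, and below it in the other 3 clones. The 3 aspartate isodecoders summed to the level of the anticodon row to within 1 normalised count.

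**Figure D4:**
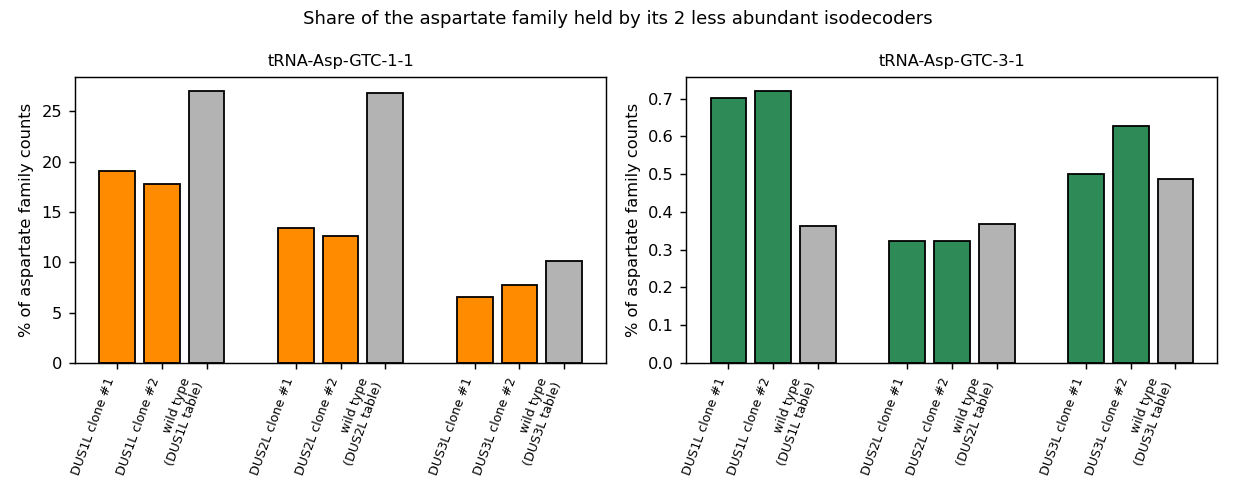
Share of aspartate family counts (%) held by tRNA-Asp-GTC-1-1 (left) and tRNA-Asp-GTC-3-1 (right) in both clones of each knockout and in the wild type of the same table (grey), from recovered levels without error. Each of the 6 clones lies below its wild type on the left, and the DUS1L clones stand highest on the right.

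The ratio of the aspartate to the histidine family is likewise unchanged by a shift in scale common to all libraries of a group. There were 2.35 and 3.63 aspartate counts per histidine count in the DUS1L clones, against 1.61 in wild type, so that both clones lay above it. In the DUS2L clones the ratio was 1.82 and 1.32, against 1.62 in wild type, and in the DUS3L clones 1.59 and 1.96, against 1.87 in wild type. These ratios carry no test.

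Shares of all nuclear counts did not always follow the fold changes. Asp-GTC made up 3.41% and 4.26% of nuclear counts in the DUS1L clones, against 2.61% in wild type. It made up 3.34% and 2.32% in the DUS2L clones, against 2.63% in wild type, and 1.46% and 1.94% in the DUS3L clones, against 2.56% in wild type. His-GTG made up 1.45% and 1.17% in the DUS1L clones, against 1.62% in wild type. It made up 1.83% and 1.76% in the DUS2L clones, against 1.62% in wild type, and 0.922% and 0.992% in the DUS3L clones, against 1.36% in wild type. In the DUS3L clones both shares were thus below wild type, although both fold changes lay above 0 and above the median family. Nuclear counts summed to 921836 and 932473 normalised counts in the DUS3L clones, against 472232 in wild type, and a share is taken of that sum. The direction of both families in DUS3L cells therefore depends on whether they are set against the median family or against the total.

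The 2 clones of a knockout did not differ in any member past the threshold. Over 6 differences between clones at the anticodon level and 12 at the isodecoder level 0 passed, and 0 had an unadjusted p under 0.05 (normal test on the summed squared SEs of the authors' DESeq2 fold changes). The clone difference lay between -0.76 and 0.55. The widest interval, that of tRNA-Asp-GTC-1-1 in DUS1L, ran from -1.66 to 1.71, so that differences within it are not excluded. With the shared wild-type part left out of the SE, that interval ran from -1.17 to 1.21. Of all isodecoders 0%, 0.364% and 2.52% passed between clones of DUS1L, DUS2L and DUS3L, and of all families 0%, 0% and 1.35%. With the shared wild-type part left out of the SE, members still gave 0 calls, beside 16.7%, 2.91% and 11.9% of all isodecoders and 2.9%, 1.41% and 5.41% of all families.

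The other families with a queuosine anticodon did pass in some clones. Asn-GTT, the asparagine family, passed in 4 of 6 clones: it stood at 1.61 ± 0.45 and -0.22 ± 0.45 in DUS1L, at -2.34 ± 0.41 and -1.86 ± 0.41 in DUS2L and at -0.09 ± 0.39 and 1.54 ± 0.39 in DUS3L in the authors' deposited tables, with the second DUS1L and the first DUS3L value not passing. Tyr-GTA, the tyrosine family, passed in both DUS2L clones (1.14 ± 0.43 and 1.87 ± 0.42 in the authors' deposited table) and in none of the other 4. Of these 6 passes 4 fell in the DUS2L columns, where 35.2% and 42.3% of all families passed. The difference between these families and Asp-GTC or His-GTG was not tested.

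Of 45 nuclear families with a mean of at least 100 in all 3 anticodon tables, Cys-GCA was nearest to Asp-GTC, with a root mean square difference of 0.43 over the 6 log2 fold changes, followed by Arg-TCG (0.44) and Ile-TAT (0.47). The median family differed from Asp-GTC by 0.83. Nearest to His-GTG were Phe-GAA (0.52), Val-CAC (0.52) and Asp-GTC (0.55), against a median of 0.84. The 4 columns of DUS1L and DUS2L share their wild-type libraries and are not independent.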

How the data were processed

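Transfer RNA was isolated by gel and made into libraries with a small RNA kit, per the labels' protocols. Listed in the submitters' processing notes, without versions or roles, are hg38 and the tools fastp, STAR, featureCounts and DESeq2. How multi-mapping reads were counted and how libraries were scaled is not given in the sources used here. The first affects how counts are split between near-identical isodecoders, the second every fold change. Per the file headers, the authors deposited for each row a signal, which is the mean of normalised counts, along with each clone's log2 fold change over wild type and a p-value without adjustment. The 6 tables hold no values per library, so depth is known only as these means.

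With Python 3.11.15, pandas 2.3.3 and scipy 1.17.1, the deposited p-values were adjusted over every row of a column that carried one. Dividing a log2 fold change by the normal quantile matching its p-value gave the SE. Group levels followed from the mean and the fold changes of both clones, assuming 3 libraries in each of 3 groups. The clone tests divided the difference of 2 fold changes by the root of the summed squared SEs. The adjustment, SE, group levels and clone tests were run on simulated tables. Those tables used the same formulas for p-values and means, so that recovery of the SE and levels was built in. Centring, the SE without the shared wild-type part and the comparison of DUS1L with DUS2L clones were not simulated. Members, lists and alternatives were chosen with earlier results of these data known. Named tRNAs were all members, the families Asn-GTT and Tyr-GTA, and the 3 nuclear families nearest to each member family. Isodecoders needed a mean of at least 10 in at least 1 table to be named, and all 4 had it. The comparison of DUS1L with DUS2L clones, and its SE without the shared wild-type part, were added after the data were seen. Alternatives were an adjusted p under 0.01, rows with a mean of 100 or more, a log2 fold change of 1 or more in size, summed isodecoders for families, centring on the median nuclear row, and the 3 spike-ins as reference.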

Additional observations from a re-analysis of the deposited data

Results flagged for a closer look

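The change of tRNA-Asp-GTC-3-1 against the shared wild-type libraries differed between the knockouts of 2 genes, by a test of the difference itself. It was 1.64 for DUS1L clone #1 minus DUS2L clone #1 (adjusted p = 0.0189), 1.53 for clone #1 minus clone #2 (adjusted p = 0.0296), 1.76 for clone #2 minus clone #1 (adjusted p = 0.0139) and 1.64 for clone #2 minus clone #2 (adjusted p = 0.0189). In the same order of pairs, 31.7%, 35.1%, 28% and 31% of all isodecoders passed this test. The comparison was chosen after the values were seen, and the sharing of wild-type libraries was inferred from recovered levels. The 4 pairs reuse the same 4 clones and are not independent. The median nuclear isodecoder was likewise higher in the DUS1L clones, at 0.20 and -0.19, than in the DUS2L clones, at -1.02 and -0.55. Centred on it, the 4 differences had adjusted p-values of 0.65, 0.30, 0.25 and 0.077, and of 0.42, 0.099, 0.055 and 0.0052 with the shared wild-type part left out of the SE.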

How the results depend on the processing

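Of the members called in DUS1L clone #1, DUS1L clone #2 and DUS2L clone #1, 1 in each, 0 remained at an adjusted p under 0.01. With centring on the median nuclear row or with the spike-ins as reference, 0 were called in DUS1L clone #1 and DUS2L clone #1. The count was the same with a mean of at least 100 or a log2 fold change of 1 or more in size. At the main threshold 20.7%, 8.36% and 54% of all isodecoders passed in DUS1L clone #1, DUS1L clone #2 and DUS2L clone #1. Shares of all isodecoders under these alternatives are not given here, so that a loss of calls cannot be read as particular to the members. Between DUS1L and DUS2L clones 4 member differences passed as deposited, all of tRNA-Asp-GTC-3-1, and 4 with the shared wild-type part left out of the SE. Of all isodecoders 28% to 35.1% passed per pair as deposited, and 46.2% to 50.8% with that part left out. Centring gave 0, beside 24.3% to 31.3% of all isodecoders. Centring with that part left out gave 6: 1 of tRNA-Asp-GTC-3-1, 3 of tRNA-His-GTG-1-1 and 2 of His-GTG, which repeats its 1 isodecoder. In that setting 43.9% to 54.2% of all isodecoders and 23.9% to 40.3% of all families passed per pair. Uncalled values changed sign as follows. Centring put Asp-GTC at 0.77 and 0.25 and His-GTG at 0.60 in DUS2L clones #1, #2 and #1, and the spike-ins put Asp-GTC at 0.26 in DUS2L clone #2 and -0.00029 in DUS3L clone #1. In DUS2L clone #1 centring put tRNA-Asp-GTC-2-8 at 0.94 (0.18 with the spike-ins), tRNA-Asp-GTC-3-1 at 0.52 and tRNA-His-GTG-1-1 at 0.53. In clone #2 tRNA-Asp-GTC-3-1 stood at 0.16 centred and 0.072 with the spike-ins, and in DUS3L clone #2 tRNA-Asp-GTC-1-1 at -0.011 centred. Leaving the shared wild-type part out of the SE gave 0 clone differences as well (lowest unadjusted p of 0.054, lowest adjusted p of 0.22). Summed isodecoders gave the family levels within 1 normalised count. The cause of these changes was not tested. No paired analysis was possible because the tables hold no values per library, and leaving out single replicates was not run for the same reason. tRNA-Asp-GTC-3-1 has no value in the DUS3L table with a mean of at least 100.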

Other observations

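The wild-type libraries of the DUS3L table differed from those of the other tables in the make-up of the aspartate family. tRNA-Asp-GTC-1-1 made up 10.1% of family counts there, against 27.1% in the wild type of the DUS1L table, while the family as a whole made up 2.56% of nuclear counts, against 2.61%. The histidine family made up 1.36% of nuclear counts, against 1.62%. Wild-type levels differed widely over all tRNAs, so that such a difference is not particular to these families. Over 135 isodecoders with a mean of at least 100, the DUS3L over DUS1L ratio of wild-type levels had a median of 0.24. Its 5th and 95th percentiles were 0.050 and 2.23. Tables were scaled separately, no value per library was at hand, and these differences carry no test.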
